A study of Mus musculus with 6 samples.

Results

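The genes described here are the deubiquitinating enzymes (DUBs) of the Usp, Otud, Uchl and Josd families, measured in cortical thymic epithelial cells (cTECs) with and without the proteasome subunit gene Psmb11. Members were chosen by symbol, as every gene whose symbol begins with Usp and a digit, Otud, Uchl or Josd, with Usp18, Usp29 and Usp9y left out. This choice was made with earlier results of these data known. That rule took 71 of 50600 genes, with 56 in the Usp, 8 in the Otud, 5 in the Uchl and 2 in the Josd family. Of the 71, 67 are annotated as protein-coding. The other members are the antisense RNAs Uchl1os and Usp46os1, the processed transcript Usp46os2 and the pseudogene Usp17le-ps. Usp6nl is a member by its symbol but encodes a GTPase-activating protein for Rab proteins, not a DUB.

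Mice of both groups carry the strain label B6.B6CB-Psmb11tm1Smta, and their thymus was used at an age of 8 to 10 weeks. The KO group has the genotype Psmb11-/- (3 libraries, replicates A to C) and the WT group Psmb11+/+ (3 libraries, replicates A to C). Polyadenylated RNA of primary cTECs was sequenced with a stranded kit. Nothing in the labels ties a replicate to 1 mouse or to a pool of mice, or gives the gate used for the cells. The p-values therefore set the difference between genotypes against a spread estimated from these libraries only, not a known spread between mice.

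Ubiquitin is attached to proteins by a cascade of enzymes and taken off by DUBs, which decide how long a ubiquitin signal lasts. Most are cysteine proteases: the USP, OTU, UCH and Josephin families differ in the fold of the catalytic domain and in the ubiquitin chains that they cut. Some sit on the proteasome and strip ubiquitin from substrates before these are degraded, some rebuild free ubiquitin from cut chains, and many act on chromatin, receptors or signalling complexes. Psmb11 encodes beta5t, the catalytic subunit that defines the thymoproteasome of cTECs, where it shapes the peptides shown to developing CD8 T cells.

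The Psmb11 transcript had 67, 36 and 41 counts in KO replicates A to C and 8293, 9297 and 10027 counts in the WT replicates, a mean of 1.33 against 252 CPM (counts scaled to each library's gene total times its TMM factor, which corrects for differences in composition), in the direction that the labels give. The libraries held 34265035 to 39224292 gene counts. The 10 cTEC markers fixed for this work, Psmb11 among them, were all detected and all fell in KO, with a summed level of 5348 to 6300 CPM in KO and 8855 to 9397 CPM in WT. Markers of other cells were higher in KO: the summed level of 10 medullary epithelial markers was 5352 to 5741 against 3977 to 4547 CPM, that of 8 tuft cell markers 164 to 210 against 104 to 113 CPM, that of 11 dendritic cell and macrophage markers 63.8 to 71.5 against 33.0 to 36.4 CPM and that of 9 fibroblast and pericyte markers 1249 to 1344 against 867 to 975 CPM. Called higher were 6, 6, 7 and 7 of these lists' markers. Of 12 thymocyte, 7 endothelial and 5 B cell markers, 11, 6 and 2 had enough counts to be tested, and 0 were called. Their median log2 fold changes were 0.16, 0.45 and 0.77. The summed B cell level, though low, was higher in every KO library than in every WT library, whereas the thymocyte and endothelial sums overlapped. The absence of calls therefore does not show that these cells were equal between genotypes. KO replicate A had the highest thymocyte sum (89.9 CPM, against 46.0 to 57.9 CPM in the other libraries). No marker of these lists was at 0 in all libraries, and the part that such cells have in the results on DUBs was not tested. In bulk RNA, fewer cells of a type and less RNA per cell cannot be told apart.

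Most DUB transcripts differed little between the genotypes. Of the 55 members with enough counts to be tested, 6 rose in KO (Usp43, Otud3, Usp36, Usp45, Otud4 and Otud5), 3 fell (Usp20, Usp15 and Usp5) and 46 were not called. A gene was called at an adjusted p below 0.05 in edgeR's quasi-likelihood test, with Benjamini-Hochberg adjustment over all 16938 genes tested. The 9 calls are 16.4% of the members tested, against 23.6% of all genes tested (12.5% higher and 11.1% lower). Among genes with a mean of 5 CPM or more, 8 of 51 members (15.7%) were called, against 28.2% of all such genes. The counts of calls were small and moved with single libraries: leaving out WT replicate A, B or C left 3 members higher, and leaving out WT replicate B or C left 1 lower. With limma on log2(TPM + 1), 4 members were called higher (Usp43, Otud3, Usp7 and Usp6nl) and 0 lower.

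**Figure D1:**
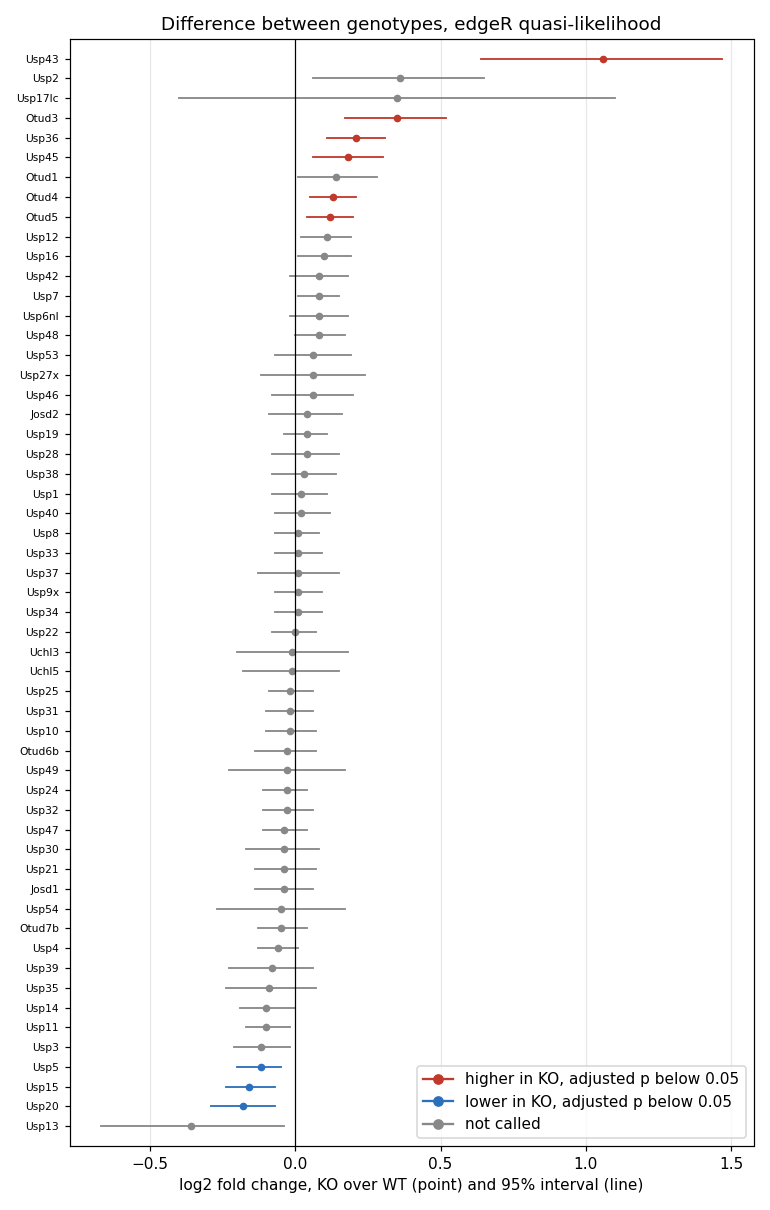
Log2 fold change of KO over WT for the 55 tested members (points), with the 95% interval derived from the edgeR fit (lines), red for members called higher, blue for members called lower and grey for the others. Usp43 at 1.06 stands to the right of every other member, and apart from Usp43, Usp2, Usp17lc, Otud3 and Usp13 each point lies within 1.2-fold of no difference.

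The sizes of the differences were also small. The median absolute log2 fold change was 0.06 over the members tested, 0.13 over all genes tested and 0.10 over all genes with a mean of 5 CPM or more. A fitted difference of 1.2-fold or more was seen in 5 members (9.09%), against 28.4% of all genes tested and 13.9% of those with a mean of 5 CPM or more. These were Usp43, Otud3, Usp2, Usp13 and Usp17lc, of which Usp43 and Otud3 were called. The signed median was 0.01. The groups did not overlap in CPM for 18 of 55 members (32.7%), 10 higher and 8 lower in KO, against 39.3% of all genes tested (19.2% higher and 20.0% lower). For 41 of the 46 members not called, the 95% interval of the difference lay within 1.2-fold in both directions. The intervals of the other 5, Usp2, Usp13, Usp17lc, Usp54 and Otud1, were wider, and the first 3 of these are the tested members with the lowest CPM beside Usp43.

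**Figure D2:**
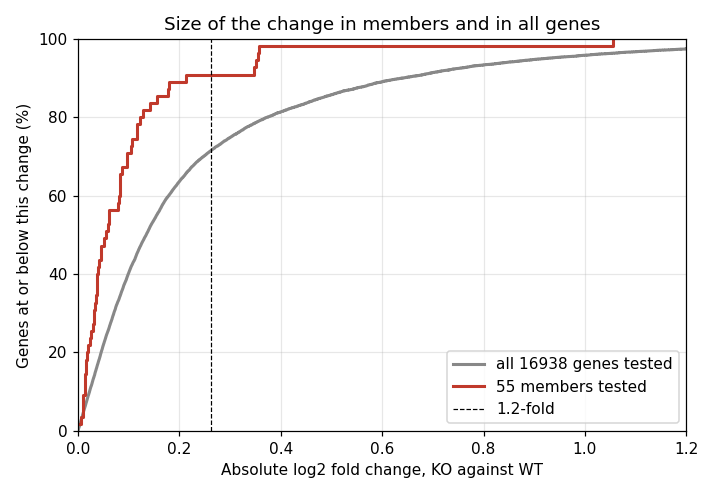
Share of genes (vertical axis, percent) whose absolute log2 fold change between KO and WT is at or below the value on the horizontal axis, for the 55 members tested (red) and all 16938 genes tested (grey). The dashed line marks 1.2-fold, which 9.09% of the members and 28.4% of all genes reach or pass (13.9% of genes with a mean of 5 CPM or more).

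The promoters of 4 called members, the pair with the largest rises for which a sequence was at hand and the pair with the largest falls, show what lies at the start of genes that moved in opposite directions. The sequences are RefSeq windows of build GRCm38.p6 from 250 bases before to 50 bases after the annotated start, written 5′ to 3′ on the gene's strand. Capitals mark every match, on either strand, to the antioxidant response element TGACNNNGC bound by Nfe2l1 and Nfe2l2, the E-box CACGTG, the cAMP response element TGACGTCA, the ETS site CCGGAAGT or the GC box GGGCGG.
Otud3 (chr4:138913919-138914218, minus strand): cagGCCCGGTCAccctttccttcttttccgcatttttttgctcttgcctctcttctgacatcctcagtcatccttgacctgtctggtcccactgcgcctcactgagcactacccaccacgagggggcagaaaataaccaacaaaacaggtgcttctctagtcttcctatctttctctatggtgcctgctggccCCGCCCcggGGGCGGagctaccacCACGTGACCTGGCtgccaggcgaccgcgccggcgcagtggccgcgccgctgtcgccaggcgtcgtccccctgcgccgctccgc
Usp36 (chr11:118290195-118290494, minus strand): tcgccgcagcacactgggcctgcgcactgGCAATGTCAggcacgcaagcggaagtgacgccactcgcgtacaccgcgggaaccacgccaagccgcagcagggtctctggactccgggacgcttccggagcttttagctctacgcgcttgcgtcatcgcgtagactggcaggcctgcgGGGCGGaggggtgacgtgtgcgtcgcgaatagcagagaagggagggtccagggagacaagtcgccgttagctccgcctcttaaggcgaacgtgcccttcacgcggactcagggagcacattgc
Usp20 (chr2:30982029-30982328, plus strand): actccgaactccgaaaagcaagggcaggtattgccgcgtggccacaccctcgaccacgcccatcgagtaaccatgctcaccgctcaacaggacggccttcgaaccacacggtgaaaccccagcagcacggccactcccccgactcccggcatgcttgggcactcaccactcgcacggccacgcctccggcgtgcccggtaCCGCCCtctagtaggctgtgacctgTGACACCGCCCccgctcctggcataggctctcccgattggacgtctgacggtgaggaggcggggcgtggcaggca
Usp15 (chr10:123196970-123197269, minus strand): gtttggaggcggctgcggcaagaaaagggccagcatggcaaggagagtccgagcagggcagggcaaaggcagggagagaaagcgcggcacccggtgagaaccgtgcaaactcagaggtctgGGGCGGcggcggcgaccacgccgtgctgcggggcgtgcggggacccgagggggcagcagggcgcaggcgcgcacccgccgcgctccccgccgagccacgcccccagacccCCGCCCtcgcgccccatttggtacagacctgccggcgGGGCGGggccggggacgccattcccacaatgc
The Otud3 window held 2 antioxidant response elements, 1 E-box that overlaps one of them, and 2 GC boxes. The Usp36 window held 1 antioxidant response element and 1 GC box, that of Usp20 1 antioxidant response element, which overlaps 1 of its 2 GC boxes, and that of Usp15 3 GC boxes. A promoter entry was found for 55 members, 43 of them tested and 7 of them called. Among the 45 entries of tested members, 13 (28.9%) held an antioxidant response element, against 12.4% of all 32851 promoters and 14.1% of the promoters of all genes tested. GC boxes were in 75.6% of the entries of tested members, against 35.7% of all promoters and 59.1% of those of genes tested. E-boxes were in 15.6% (7.15% and 9.32%), ETS sites in 11.1% (3.89% and 7.15%) and the cAMP response element in 0 (1.79% and 2.83%). The tested members' promoters were 65.9% G and C, those of all genes tested 60.1%. Such matches are letters only: both rising and falling members carried the antioxidant response element and the GC box.

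By level per transcript length, in TPM (RSEM's estimate of transcript abundance, which takes gene length into account), 16 members had a mean of 50 TPM or more, 32 had 10 to 50, 6 had 1 to 10 and 17 were below 1. The median was 24.6 TPM over tested members and 14.7 TPM over all genes tested. Usp19, a DUB with a form anchored in the endoplasmic reticulum, was the most abundant at 144 ± 8.00 TPM in KO and 134 ± 3.06 TPM in WT (SD, n = 3 each). Usp5 followed at 86.8 ± 3.17 and 91.8 ± 1.49 TPM, then Usp7 at 86.2 ± 4.24 and 76.3 ± 1.45 TPM. Otud5 stood at 82.6 ± 3.15 and 76.1 ± 1.27 TPM and Usp4 at 79.8 ± 1.19 and 78.8 ± 0.775 TPM. By their means Usp19 and Usp5 held the first places in both genotypes, whereas Usp4 stood below Usp7 and Otud5 in KO and above them in WT. Otud5 and Usp7 differ by less than their SD in WT, as do Usp5 and Usp7 in KO. In KO replicate A, Usp7 stood above Usp5 (91.1 against 83.2 TPM). These 5 genes hold 23.7% of the summed TPM of all members. That sum was 1985 to 2037 TPM in KO and 1934 to 1965 TPM in WT. On log2(TPM + 1) the median log2 fold change was 0.030 over members and 0.024 over all genes tested. By counts these medians were 0.01 and -0.001.

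**Figure D3:**
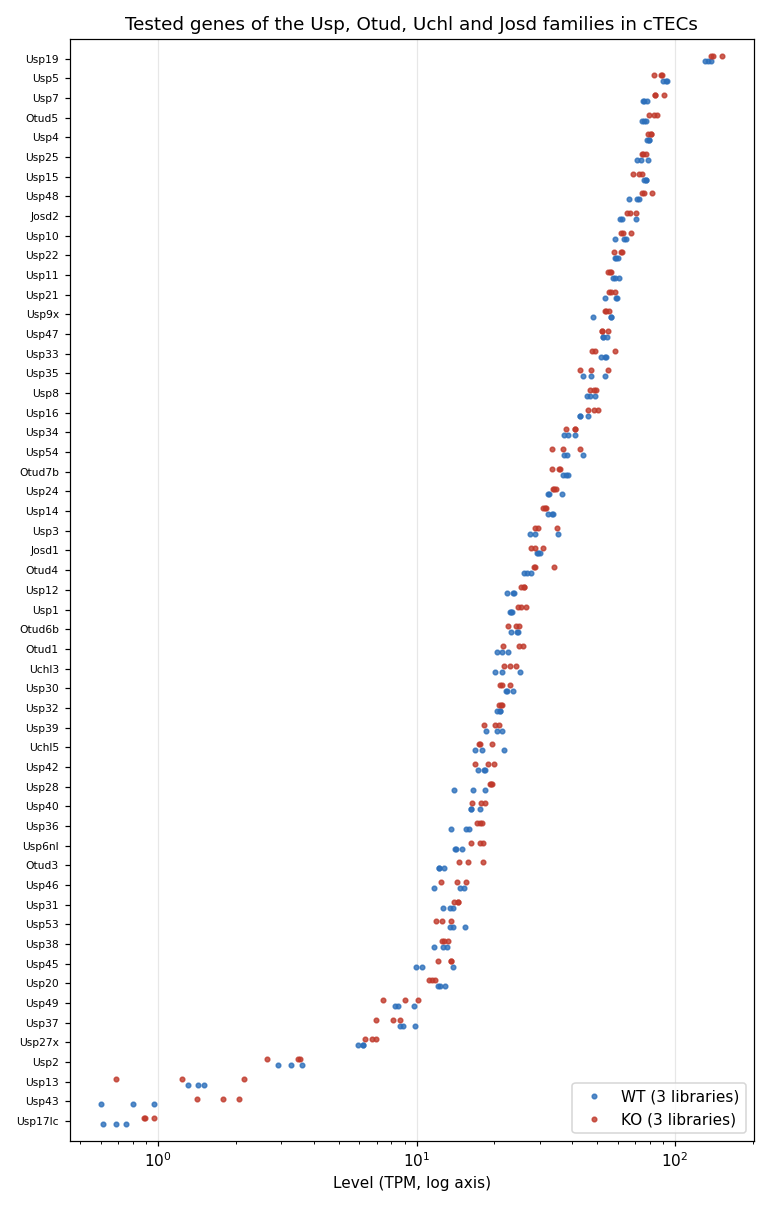
Level of each of the 55 tested members in TPM on a log axis, each point 1 library, with 3 KO libraries in red and 3 WT libraries in blue. Usp19 is at the top with a mean of 139 TPM and Usp17lc is at the lower end, and for most members the colours lie on top of each other.

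No library stood apart over the members. Each of the 6 libraries was the highest for 5 to 14 and the lowest for 5 to 12 of the 51 members with a mean of 5 CPM or more, KO replicate C being highest for 14. Within a genotype the coefficient of variation of these members had a median of 3.37% in KO and 3.07% in WT, against 4.38% and 3.57% over all genes of that level.

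The DUBs bound to the proteasome were not called. Usp14, which docks on the regulatory particle and trims ubiquitin from arriving substrates, was at 39.4, 37.9 and 37.4 CPM in the KO libraries A to C against 40.6, 40.8 and 41.3 CPM in the WT replicates. All KO libraries were lower than all WT libraries, but the log2 fold change of -0.10 (95% interval -0.19 to 0.00) did not pass the test (edgeR adjusted p = 0.149). Uchl5, which binds the ubiquitin receptor Adrm1 and also the Ino80 chromatin remodeler, was at 14.4, 16.5 and 15.6 CPM in the KO libraries against 14.9, 15.6 and 16.3 CPM in WT. These groups overlap, and the log2 fold change was -0.01 (95% interval -0.18 to 0.15; edgeR adjusted p = 0.930). Psmd14, the proteasome's own metal-dependent DUB and not a member by symbol, did fall, from 66.7 ± 1.23 CPM in WT to 57.1 ± 2.79 CPM in KO (SD, n = 3 each; log2 fold change -0.22, edgeR adjusted p = 0.00162). Adrm1 was not called, with 57.0 CPM in KO against 60.9 CPM in WT. Its KO libraries all lay below its WT libraries (log2 fold change -0.10, 95% interval -0.19 to -0.01, edgeR adjusted p = 0.112).

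Of the enzymes that recycle ubiquitin, Usp5 fell slightly. Usp5 (chromosome 6, 124815019 to 124829484, minus strand, GRCm38) cuts free ubiquitin chains from their exposed end. It was at 126, 135 and 133 CPM in the KO libraries against 143, 144 and 143 CPM in WT. The KO libraries all lie below the WT libraries, and the WT libraries lie closer to each other (SD 0.732 CPM) than the KO libraries (SD 4.64 CPM). The log2 fold change was -0.12 ± 0.04 (SE; edgeR adjusted p = 0.0213). Its relative Usp13 had 3.07, 3.17 and 2.90 CPM in the KO libraries against 3.60, 4.32 and 3.79 CPM in WT, without overlap, but did not pass the test (log2 fold change -0.36, 95% interval -0.67 to -0.04; edgeR adjusted p = 0.0977). Uchl3, a hydrolase of ubiquitin precursors and small adducts, had 12.3 CPM in KO against 12.4 CPM in WT. Uchl1, the abundant hydrolase of neurons, was close to the floor of detection with 0 to 13 counts per library. The Usp5 call was lost without KO replicate A or WT replicate A, B or C (adjusted p = 0.0552 to 0.0841) and with limma on TPM (limma adjusted p = 0.245).

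Of 13 tested nuclear and chromatin DUBs, 1 rose and 0 fell, against 12.5% and 11.1% of all genes tested. Among the 12 that were not called, Usp3, Usp7, Usp11 and Usp16 had groups without overlap and 95% intervals that leave out 0. Groups without overlap were seen for 39.3% of all genes tested, and the intervals are not adjusted for the number of genes. The member that rose, Usp36 (chromosome 11, 118259651 to 118290244, minus strand), works in the nucleolus and stabilises ribosome assembly factors and Myc. It had 51.2, 52.2 and 54.2 CPM in the KO libraries against 47.1, 46.0 and 43.1 CPM in WT, groups that do not overlap. Its log2 fold change was 0.21 ± 0.05 (SE; edgeR adjusted p = 0.00376), and no library whose removal was tried ended the call. The histone H2A enzyme Usp16 was at 52.5 ± 1.29 CPM in KO against 48.9 ± 0.410 CPM in WT (SD, n = 3 each) without passing the test (adjusted p = 0.0878, and 0.0392 when genes below a mean of 5 CPM were left out of the test), and Usp3, which acts on the same histone, was at 42.1 ± 0.385 and 45.6 ± 0.778 CPM (adjusted p = 0.0651). Usp7, which removes ubiquitin from Mdm2 and p53, had 177, 175 and 171 CPM in the KO libraries against 165, 165 and 164 CPM in WT, again without overlap (log2 fold change 0.08, edgeR adjusted p = 0.0833, and 0.0287 under the same 5 CPM filter). Usp22, the catalytic subunit of the SAGA complex module, was at 134 CPM in both genotypes (95% interval of the log2 difference -0.08 to 0.07). Usp27x and Usp51, relatives of Usp22 that use the same partner proteins, were at 12.4 and 11.9 CPM and at no more than 7 counts per library. Usp1, which acts on Fancd2 and Pcna in DNA repair, had 42.7 and 42.2 CPM.

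Usp43, Usp45 and Otud3 complete the larger rises. Usp43 (chromosome 11, 67854523 to 67922153, minus strand) is a little studied USP whose closest relative is Usp31. It had 102, 130 and 146 counts in KO and 53, 60 and 72 counts in WT, which is 2.75, 3.53 and 4.27 CPM against 1.54, 1.67 and 1.84 CPM. Every KO library exceeded every WT library. At 3.52 ± 0.761 CPM in KO against 1.68 ± 0.152 CPM in WT (SD, n = 3 each), it was 2.08-fold higher (log2 fold change 1.06, 95% interval 0.64 to 1.47; edgeR adjusted p = 9.60e-04). By TPM it ranked low, with 1.75 TPM in KO and 0.787 TPM in WT. The gene on its other strand, 9130017K11Rik, had no more than 0.189 CPM in any library. Markers of other cells were higher in the same KO libraries, as given above, and their part in this rise was not tested. Usp31 was not called, with 73.9 CPM in KO and 74.9 CPM in WT (95% interval of the log2 difference -0.10 to 0.06).

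Otud3 (chromosome 4, 138895379 to 138913945, minus strand), an enzyme of the OTU family, had 16.2, 16.2 and 18.8 CPM in the KO libraries against 14.0, 13.1 and 13.2 CPM in WT. The groups do not overlap, and the difference was 1.27-fold (log2 fold change 0.35 ± 0.08 SE; edgeR adjusted p = 0.00600). Usp43 and Otud3 were called in every alternative that tested them. Usp45 (chromosome 4, 21767156 to 21837872, plus strand), which acts on the repair nuclease Ercc1, had 32.1, 30.7 and 29.5 CPM in the KO libraries against 27.96, 27.9 and 25.7 CPM in WT. Its KO libraries all lie above the WT libraries, by a log2 fold change of 0.18 (edgeR adjusted p = 0.0322). The call was lost when KO replicate A or B, or any WT replicate, was left out (adjusted p = 0.0504 to 0.168), with DESeq2 (0.0590) and with RSEM expected counts (0.0528). It was also lost with limma on TPM (limma adjusted p up to 0.346). Tstd3, on the other strand of the Usp45 locus, had 2.25 to 4.02 CPM.

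**Figure D4:**
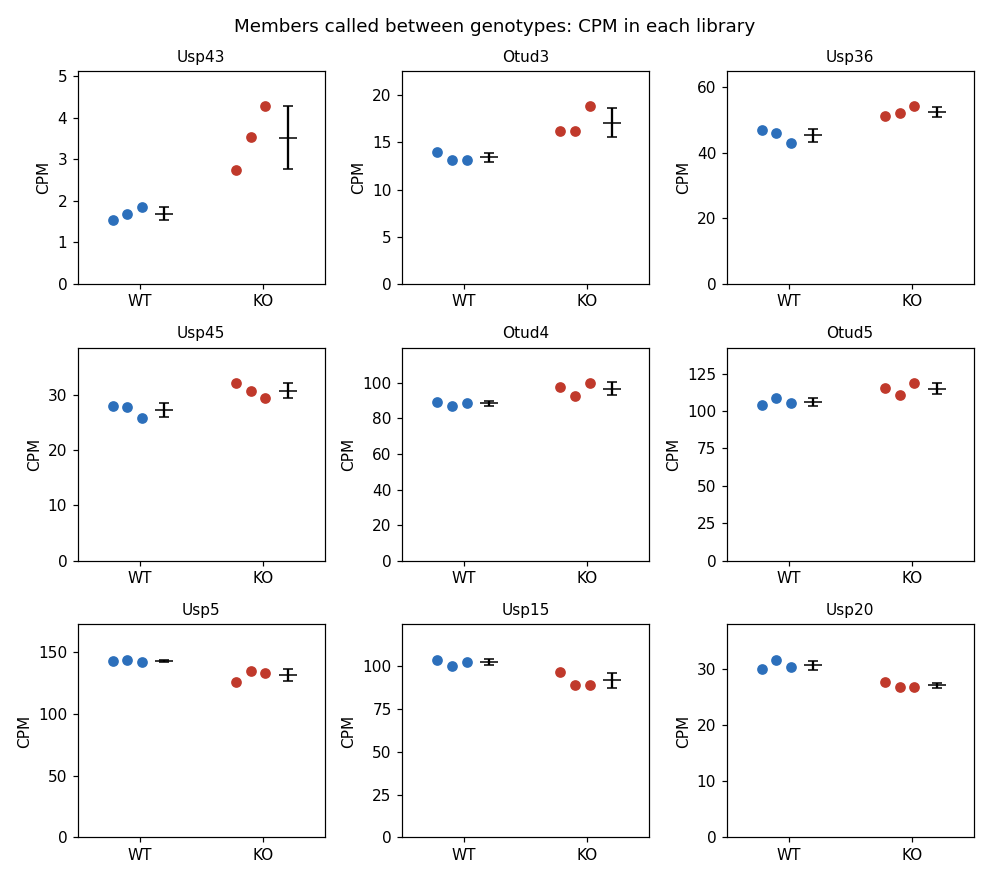
CPM of the 9 members called between genotypes, with 3 WT libraries in blue and 3 KO libraries in red (replicates A to C from left to right) and the mean ± SD in black. All axes start at 0; in each panel the KO and WT libraries do not overlap, and Usp43, with 3.52 against 1.68 CPM, is the only panel where the KO mean is more than 1.5 times the WT mean.

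Among DUBs of receptor and kinase signalling, 2 of 12 tested members rose and 1 fell, a share close to the 23.6% called among all genes tested. Usp15 (chromosome 10, 123105006 to 123196995, minus strand), which acts on TGF-beta and BMP receptors and receptor-regulated Smads, had 97.0, 89.4 and 89.1 CPM in the KO libraries against 104, 100.5 and 103 CPM in WT. The KO libraries lie below all WT libraries, KO replicate A closest to them (log2 fold change -0.16 ± 0.04 SE; edgeR adjusted p = 0.0102). Its close relatives Usp4 and Usp11 were not called. Usp4 had 135, 132 and 132 CPM in the KO libraries against 138, 137 and 139 CPM in WT (log2 fold change -0.06, 95% interval -0.13 to 0.01), and Usp11 had 120 ± 0.997 CPM in KO against 128 ± 2.79 CPM in WT (log2 fold change -0.10, edgeR adjusted p = 0.0530). Whether the 3 relatives differ from each other was not tested.

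The rises in this class were both OTU enzymes. Otud4 (chromosome 8, 79639618 to 79677724, plus strand), which trims ubiquitin chains on Myd88 and serves as a scaffold in DNA alkylation repair, had 97.7, 92.7 and 99.9 CPM in the KO libraries against 89.5, 87.1 and 89.0 CPM in WT. Otud5 (chromosome X, 7841364 to 7876626, plus strand), which removes chains from Traf3 and so restrains type I interferon production, had 115, 111 and 119 CPM in the KO libraries against 104, 109 and 105 CPM in WT. Both had no overlap between genotypes, with log2 fold changes of 0.13 and 0.12 (edgeR adjusted p = 0.0246 and 0.0346). Neither call held when KO replicate A or C, or any WT replicate, was left out (adjusted p = 0.0544 to 0.105 for Otud4 and 0.0512 to 0.129 for Otud5), and that of Otud5 was also lost with DESeq2 (0.0502) and without a count filter (0.0537). With limma on TPM both calls were lost (limma adjusted p up to 0.182 for Otud4 and 0.114 for Otud5). Over the Otud family, 3 of 6 tested members rose and 0 fell, against 3 rises and 3 falls among 45 tested Usp members and 12.5% higher and 11.1% lower among all genes tested; the difference between the families was not tested. Otud1 was at 36.7 and 33.2 CPM and was called only without KO replicate A (adjusted p = 0.00910), while Otud7b, a regulator of non-canonical NF-kappaB signalling through Traf3, had 128 and 132 CPM. Otud7a and Otud6a were absent or nearly so, with at most 1 count in a library.

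Other signalling DUBs were not called. Usp9x, a large enzyme acting on Mcl1 and Smad4, had 182 and 180.4 CPM (95% interval of the log2 difference -0.07 to 0.09). Usp34, which acts on axin in Wnt signalling, had 212 and 210 CPM, Usp25 199 and 201 CPM, and Usp47 165 and 169 CPM. Usp2, a clock-regulated gene, had 4.31 ± 0.238 CPM in KO against 3.36 ± 0.239 CPM in WT (SD, n = 3 each), without overlap and without a call (log2 fold change 0.36, 95% interval 0.06 to 0.65; edgeR adjusted p = 0.0795).

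Of 6 DUBs of endosomes, endoplasmic reticulum, Golgi and mitochondria, 1 fell (Usp20) and 0 rose, against 11.1% lower and 12.5% higher among all genes tested. Usp20 (chromosome 2, 30982279 to 31023586, plus strand) rescues endocytosed beta-adrenergic receptors. It had 27.6, 26.9 and 26.8 CPM in the KO libraries against 30.02, 31.6 and 30.3 CPM in WT. All KO libraries were lower (log2 fold change -0.18 ± 0.05 SE; edgeR adjusted p = 0.0213), a call that ended when replicate B or C of either genotype was left out (adjusted p = 0.0520 to 0.0972) and with DESeq2 (0.0564). The Usp20 call was also lost with limma on TPM (limma adjusted p up to 0.337). Its paralog Usp33 had 81.6 ± 1.71 CPM in KO against 81.0 ± 2.003 CPM in WT (SD, n = 3 each; 95% interval of the log2 difference -0.07 to 0.09). Usp19 had 262, 261 and 277 CPM in the KO libraries against 261, 260.4 and 258 CPM in WT. Usp8, which acts on the sorting of receptors at endosomes, was not called, at 115 and 114 CPM. Usp30, an opponent of mitophagy on the mitochondrial surface, had 41.4 and 42.7 CPM and Usp32 had 66.9 and 68.1 CPM.

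Usp12 and Usp46, close relatives that are activated by WD-repeat proteins, were not called. Usp12 had 55.6, 54.6 and 56.7 CPM in the KO libraries against 50.3, 52.0 and 52.7 CPM in WT without overlap (log2 fold change 0.11, edgeR adjusted p = 0.0800, and 0.0367 under the 5 CPM filter), whereas Usp46 overlapped at 29.2 ± 1.37 and 27.98 ± 2.45 CPM (SD, n = 3 each). Their shared activator Wdr48 had 78.3 and 73.7 CPM and was not called either. Usp10, the stress granule DUB that binds G3bp1, had 57.6 and 58.2 CPM, and Usp39, an inactive family member of the spliceosome, 24.3 and 25.7 CPM. The Josephin enzymes Josd1 and Josd2 were not called, at 48.2 against 49.6 CPM and 40.4 against 39.4 CPM.

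The 16 members that could not be tested had at most 13 counts in any library, and 4 had 0 in all 6. Besides Uchl1, Uchl1os, Usp51, Otud6a, Otud7a, Usp46os1 and Usp46os2 they are Uchl4, Usp26, Usp44, Usp50, Usp17la, Usp17lb, Usp17ld, Usp17le and Usp17le-ps. Several are near-copies of other genes, so reads may be split or dropped: Uchl4 resembles Uchl3, and the Usp17l genes form a cluster on chromosome 7, of which Usp17lc alone was tested, with 16 to 35 counts per library. It was at 0.761 ± 0.284 CPM in KO against 0.596 ± 0.0932 CPM in WT (SD, n = 3 each) and was not called (edgeR adjusted p = 0.524).

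A list of 25 genes outside the symbol rule held DUBs and related proteins, not all of which are DUBs. Of the 25, 2 rose and 3 fell, a share near the 23.6% called among all genes tested. Tnfaip3, the A20 enzyme that limits NF-kappaB signalling, had 154, 144 and 139 CPM in the KO libraries against 111, 119 and 109 CPM in WT. All KO libraries were higher (log2 fold change 0.36, edgeR adjusted p = 2.89e-05), and Tnfaip3 and Psmd14 were called in each of the 16 alternatives. Otub1, an OTU enzyme that also blocks E2 enzymes, fell from 79.0 to 70.3 CPM (log2 fold change -0.17, adjusted p = 0.00574), a call lost with limma on TPM (adjusted p up to 0.342). Cops5, the deneddylase of the COP9 signalosome, fell from 49.4 to 44.8 CPM (adjusted p = 0.0275), a call that ended on leaving out KO replicate A, KO replicate B, WT replicate A or WT replicate C (0.0522 to 0.122) or with DESeq2. Alg13, a glycosyltransferase subunit with an OTU domain, rose from 8.48 to 10.3 CPM (adjusted p = 0.0480), a call lost without KO replicate A or C or any WT replicate (0.0651 to 0.190), and also with DESeq2, without a count filter, with the replicate letter as a block and without the robust estimate of spread. Eif3h, Mindy2 and Cyld had the highest levels among those not called; Cyld, a suppressor of NF-kappaB, was at 117 and 118 CPM. The median log2 fold change of the list was 0.00, and that of all genes tested was also 0.00.

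Among 21 tested partner proteins of DUBs, 1 rose and 3 fell, again near the 23.6% of all genes tested. Babam2 and Babam1, scaffold subunits of the Brcc3 deubiquitinase complexes, both fell. Babam2 had 21.3, 18.6 and 19.8 CPM in the KO libraries against 24.7, 24.5 and 25.6 CPM in WT (log2 fold change -0.32, edgeR adjusted p = 0.00189), and Babam1 had 56.2 ± 0.588 and 64.8 ± 4.88 CPM (SD, n = 3 each; adjusted p = 0.00792). Brcc3 itself, the catalytic subunit, was at 16.9 and 17.4 CPM and was not called. Atxn7, a SAGA subunit that anchors the Usp22 module, rose from 63.9 to 72.7 CPM (adjusted p = 0.00789), and Atxn7l3b, which competes for the Usp22 partner Eny2, fell from 169 to 155 CPM (adjusted p = 0.0115). The uncalled partners with the highest levels were G3bp2 (265 and 270 CPM), G3bp1 (199 and 212 CPM) and Hgs (100.3 and 102 CPM). Without WT replicate C the list had 0 rises and 1 fall, and without KO replicate A it had 2 rises and 3 falls; the first left adjusted p = 0.0606, 0.0635 and 0.0563 for Atxn7, Atxn7l3b and Babam1, and with limma on TPM it had 0 of either. The median log2 fold change of the list was -0.03.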

How the data were processed

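The authors deposited whole-number counts of reads for each gene under 3 strand settings. Counts of reads on the opposite strand entered the tests, since reads on the same strand made up 4.30% to 4.53% of the reads of both strands. Reads without a gene were 18.4% to 19.8% of reads and were left out. Expected counts and TPM are the authors' RSEM estimates per gene, and TPM takes gene length into account. The submitters' processing notes name bcl2fastq 2.17, STAR 2.5.1b, RSEM 1.2.28 and GRCh38, a human build, although the identifiers are mouse; symbols and positions come from GENCODE M21 (GRCm38), which matched 50376 of 50600 identifiers (99.56%).

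KO and WT were compared with edgeR 4.0.16 (R 4.3.3) after filterByExpr and TMM, with a robust quasi-likelihood fit without a block; the code was tested on simulated data. CPM are TMM-scaled. The SE is derived from the F statistic, and intervals use the fit's degrees of freedom. Per-library values are printed for the called members, the 5 with the highest TPM, Usp14 and Uchl5, and for some members named beside them; the fixed rule asked for a 1.2-fold change or 30 CPM among called members, which would have left out Usp20 and Usp45. From each pathway list the called genes and 3 uncalled ones with the highest CPM are named, with others added after their values were seen. Members and lists were chosen with earlier results of these data known. The 16 alternatives were RLE, DESeq2 1.42.0, 2 other count filters, RSEM expected counts rounded to whole numbers, unstranded counts, limma 3.58.1 on log2(TPM + 1) and log2(TPM + 0.1), a replicate block, each library left out and, added after seeing the data, no robust estimate. Figures were drawn with matplotlib 3.10.9. No protein sequences were used here.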

Additional observations from a re-analysis of the deposited data

How the results depend on the processing

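None of the 9 called members changed direction in any alternative. The number of members called higher was 6, ranged from 3 to 5 when a library was left out, and was 4 with DESeq2, 8 with a mean of at least 5 CPM (where Usp7, Usp12 and Usp16 enter and Usp43 is not tested) and 6 with the replicate block. The number called lower was 3, ranged from 1 to 2 when a library was left out, was 3 with the replicate block, 2 with DESeq2 and 0 with limma at either pseudocount, log2(TPM + 1) or log2(TPM + 0.1). Those fits on TPM called 1295 and 1326 genes higher and 793 and 800 lower among all genes, against 2113 and 1876; leaving out a library left 1239 to 1744 lower. The median log2 fold change of the members was 0.010, with -0.015 without a count filter, where rarely counted members enter, and 0.030 and 0.031 on log2(TPM + 1) and log2(TPM + 0.1). The median of all genes in these 3 fits was 0.009, 0.024 and 0.028, against -0.001 in the main fit. Without the filter, well counted members also moved, such as Usp36 from 0.21 to 0.20 and Usp15 from -0.16 to -0.17. On TPM, Usp36 and Usp15 were not called (adjusted p = 0.0933 and 0.198 with limma on log2(TPM + 1)); the cause was not tested. A pairing by replicate letter was not seen: deviations of samples with the same letter correlated at -0.016, 0.082 and -0.034 for A, B and C. The B libraries correlated best with their own letter, the A and C libraries did not. The replicate block left both member counts as they were. With 3 libraries per genotype, these values cannot show whether libraries were prepared in pairs. Depth limits the members with few counts, such as Usp43, Usp2, Usp13 and Usp17lc.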

Other observations

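Some members differed between counts and TPM, both from the same libraries. Usp28, which stabilises Myc, had a log2 fold change of 0.04 by counts, 0.08 by RSEM expected counts and 0.25 by log2(TPM + 1), where it was not called (limma adjusted p = 0.129). Usp1 moved from 0.02 to 0.13 and Usp37, a cell cycle DUB, from 0.01 to -0.19, neither of them called. Usp2 went the other way, from 0.36 by counts to -0.02 by log2(TPM + 1). Usp7 and Usp6nl, not called by counts, were called on log2(TPM + 1) with log2 fold changes of 0.17 and 0.25 (limma adjusted p = 0.0455 and 0.0469). For Uchl3, RSEM assigned 319 to 385 expected counts per library where the read counts were 407 to 486, and Uchl4, its near-copy, received 2.01 to 14.0 expected counts against 0 to 11 read counts.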
